A study of Mus musculus with 17 samples.

Results

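The sine oculis homeobox genes (Six2 to Six6) and their eyes absent (EYA) partners were followed in erythroid blasts of Spi1-transgenic mice. The members were 9 genes chosen by name (Six2, Six3, Six4, Six5, Six6, Eya1, Eya2, Eya3 and Eya4) after Six2 had been seen to be nearly silent in FANCA-null leukaemic cells, so the values of Six2 in model 1 are given as a description with no test. Of the 9 members, 7 had a row among the 26029 genes of model 1 and among the 24659 genes of model 2. Six3 and Six6 had no row in either table and therefore no value to analyse there. The RNA-seq counts of both models came from 17 mice with 1 library per mouse, and mice are named here by the end of their titles. Every mouse carried the TgSpi1 transgene, which drives an erythroid proliferation, and every culture was kept in erythropoietin (EPO). Preleukaemic blasts are EPO-dependent, whereas leukaemic blasts grow without EPO and form tumours. Model 1 (DBA2J and FVB/N strains mixed) held 10 mice. Fanca was wild type (TgSpi1FA+/+) in preleukemic_138, preleukemic_445, preleukemic_451 and preleukemic_479, all preleukaemic, and deleted (TgSpi1FA-/-) in the preleukaemic preleukemic_40, preleukemic_77 and preleukemic_224 and the leukaemic leukemic_26, leukemic_28 and leukemic_39. Model 2 (DBA2J) held 4 preleukaemic (preleukemic_633, preleukemic_663, preleukemic_812 and preleukemic_837) and 3 leukaemic (leukemic_601, leukemic_606 and leukemic_921) TgSpi1FA+/+ mice. The leukaemic cells of model 2 emerged after serial blood transfusion, and its libraries had another RNA input and fragmentation time than those of model 1, so that model, strain and protocol cannot be told apart. Ages were not given in the sources used here.

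Sine oculis proteins are homeodomain transcription factors that bind DNA through a family-specific domain and a homeodomain. EYA proteins do not bind DNA themselves. They are recruited by sine oculis proteins as coactivators, and they carry a tyrosine phosphatase domain. Together with PAX and DACH proteins they form a regulatory network best known from the eye, kidney, ear and skeletal muscle, where SIX2 keeps nephron progenitors undifferentiated.

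The start regions of Six2 and Six4 are shown because the largest fold differences among the members were theirs. Both sequences are from RefSeq on GRCm38.p6, run 5′ to 3′ on the strand of the gene, and reach from 250 bases before to 50 bases after the start. Promoter sequences were found for 7 of the 9 members (all but Eya1 and Eya2). Capitals mark AGATAA, a site of GATA factors, in Six2 (chr17:85688205-85688504, minus strand). In Six4 (chr12:73113196-73113495, minus strand) they mark AACCTGA, the reverse complement of TCAGGTT, the core of the MEF3 element that sine oculis proteins bind. A second start region of Six4 (chr12:73113376-73113675) held none of the motifs searched, and the window of Six6, which had no value here, also held TCAGGTT.
Six2: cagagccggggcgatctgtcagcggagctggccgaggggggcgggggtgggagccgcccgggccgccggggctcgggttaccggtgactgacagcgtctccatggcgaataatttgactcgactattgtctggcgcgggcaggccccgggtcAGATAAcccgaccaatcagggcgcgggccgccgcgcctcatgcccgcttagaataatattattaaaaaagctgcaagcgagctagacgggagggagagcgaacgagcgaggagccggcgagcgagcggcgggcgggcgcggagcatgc
Six4: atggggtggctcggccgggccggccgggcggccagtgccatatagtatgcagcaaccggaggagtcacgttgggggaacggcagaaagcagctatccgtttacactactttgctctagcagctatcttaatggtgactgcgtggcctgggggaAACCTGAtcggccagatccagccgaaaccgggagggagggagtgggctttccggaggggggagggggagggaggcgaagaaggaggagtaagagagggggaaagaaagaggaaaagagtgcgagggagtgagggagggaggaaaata
Searched on both strands, AGATAA was in 11.2% and TCAGGTT in 4.07% of 32851 promoters of this length. GAGGAAGT, a site of the SPI1 protein encoded by the transgene, was in 3.20% of all promoters and in none of those of the members. The Six2 window had a GC content of 67.3% with 37 CG dinucleotides, against medians of 52.7% and 7 over all promoters. A match of letters is no evidence of binding.

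Before the members are described, the libraries were checked. A library of model 1 held 29964576 to 38217654 counts and one of model 2 held 37726753 to 40514205. Levels are given as counts scaled to a TMM library size of 1000000 (CPM). Fanca was between 28.2 and 83.5 CPM in the TgSpi1FA+/+ libraries of model 1 and between 0.615 and 2.30 CPM in the TgSpi1FA-/- libraries. preleukemic_40, preleukemic_77 and preleukemic_224 are preleukaemic by their titles and cell type, whereas their source names and column names say leukaemic, and the titles were used. The 8 erythroid markers examined were all over 3 counts in at least 1 library of each group, and their summed level was 1962 to 4206 CPM in TgSpi1FA-/- leukaemic cells and 4434 to 4888 CPM in TgSpi1FA-/- preleukaemic cells. Of these markers, Klf1, an erythroid transcription factor, was repressed in TgSpi1FA-/- leukaemic cells (log2 fold change -1.27, adjusted p = 0.00626). The part of this difference in the results below was not tested. Fewer cells of a type and less RNA per cell cannot be told apart in these bulk samples. preleukemic_445 and preleukemic_479 of model 1 differed less than any other pair of mice within a group, with a chi-square of 8.53 per degree of freedom against 114 to 414 for the other pairs of both models. A second table held other counts of 7 mice of model 1. There, the profile of preleukemic_445 in the first table correlated less with preleukemic_445 (r = 0.522) than with preleukemic_479 (r = 0.622), and these 2 mice were therefore also counted as 1 sample.

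Of the 5 groups, Six2 had its highest mean in TgSpi1FA-/- preleukaemic cells and was nearly silent in TgSpi1FA-/- leukaemic cells. Six2 lies at chr17:85684277-85688274 on the minus strand (GRCm38) and overlaps no other annotated gene. TgSpi1FA+/+ preleukaemic cells had 20.3 CPM of Six2 in preleukemic_445, 25.0 in preleukemic_479, 10.5 in preleukemic_451 and 0.823 in preleukemic_138. In TgSpi1FA-/- preleukaemic cells it was 80.4 CPM in preleukemic_77, 425 in preleukemic_224 and 185 in preleukemic_40. In TgSpi1FA-/- leukaemic cells it was 0 in leukemic_26, 0.0256 CPM in leukemic_28 and 0.0254 in leukemic_39, which is 1 count in each of the last 2 mice. The 3 groups did not overlap, and their order was the same for every pair of mice. The mean was 14.2 ± 10.7 CPM (SD, n = 4), 230.2 ± 177 (SD, n = 3) and 0.0170 ± 0.0147 (SD, n = 3), so that the SD was close to the mean within each group. Pooled over mice, the level in TgSpi1FA-/- preleukaemic cells was 13666 times that in leukaemic cells, with a 95% counting interval from 3783 to 112849 that covers counting error only. Without preleukemic_224 this ratio was 7651. Against TgSpi1FA+/+ preleukaemic cells the ratio to leukaemic cells was 795 (interval 219.8 to 6571). The ratio of TgSpi1FA-/- to TgSpi1FA+/+ preleukaemic cells was 17.2, and it was 9.62 without preleukemic_224. In the second table Six2 was 0.0372 CPM in preleukemic_138, 25.5 in preleukemic_445, 5.47 in preleukemic_451 and 1.73 in preleukemic_479, against 0.0452 in leukemic_26, 0.0552 in leukemic_28 and 0 in leukemic_39. There preleukemic_138 lay within the range of the leukaemic mice, so that the groups overlapped in that table. The ratio there was 162 (interval 99.7 to 284), or 50.02 without preleukemic_445.

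**Figure D1:**
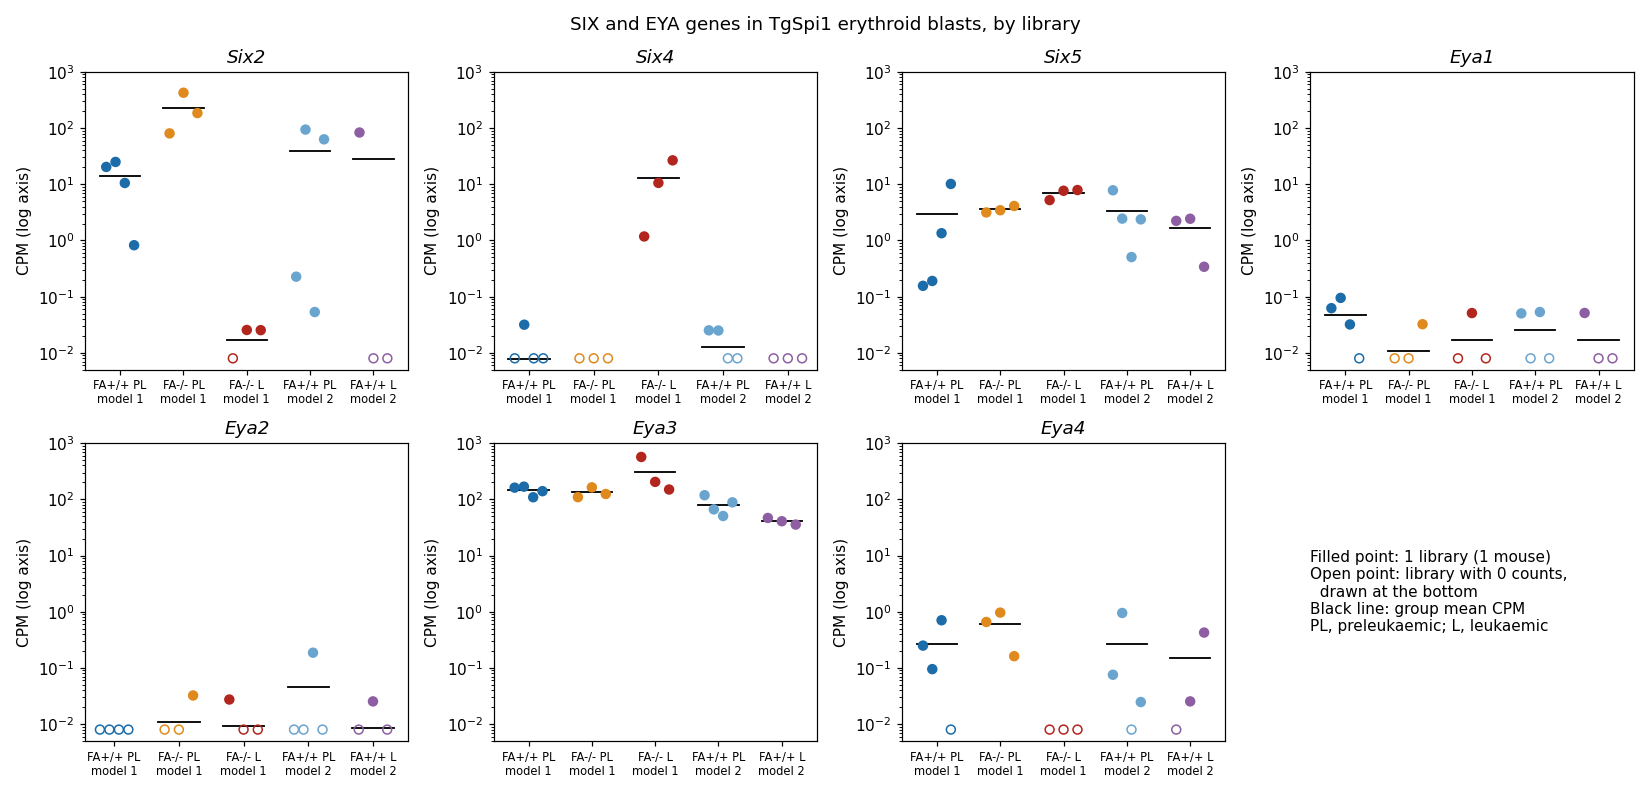
CPM of the 7 members with a row, on a log axis, in each library of the 5 groups (1 point per mouse; open points, 0 counts; black line, group mean). Six2 is at or under 0.0256 CPM in the 3 leukaemic TgSpi1FA-/- mice and is split into high and low mice in both groups of model 2, whereas Six4 is above 1 CPM only in the 3 leukaemic TgSpi1FA-/- mice.

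In model 2, which played no part in the choice of Six2, the gene was on in some mice and off in others at both stages. Preleukaemic mice had 0.227 CPM of Six2 in preleukemic_633, 93.9 in preleukemic_663, 0.0533 in preleukemic_812 and 63.1 in preleukemic_837. In leukaemic mice it was 83.4 CPM in leukemic_601 and 0 in leukemic_606 and leukemic_921. High and near-zero mice were thus present at both stages and the groups overlapped. Leukaemic cells differed from preleukaemic cells by a log2 fold change of -0.50 ± 2.60 (SE), with an adjusted p of 0.935 by the quasi-likelihood test of edgeR. The estimate rested on single mice, being -13.57 without leukemic_601 (adjusted p = 0.309), 0.08 without leukemic_606 and 0.08 without leukemic_921 (adjusted p = 0.992 for each). The change of model 1 minus that of model 2 was -12.89 for Six2 as a description, and it was 0.19 without leukemic_601.

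Among the genes within 1 Mb of Six2, the closest one varied alongside it. AC166821.1 (ENSMUSG00000117422) is a lincRNA on the plus strand at chr17:85693629-85713028, 5.4 kb from Six2. It had 0.361 CPM in preleukemic_77, 4.91 in preleukemic_224 and 0.615 in preleukemic_40, and it had 0 counts in the 3 leukaemic TgSpi1FA-/- mice. Leukaemic cells had at least 79.4-fold less of it against a floor of 3 counts over the group, and at least 18.7-fold less without preleukemic_224, 52.4-fold without leukemic_28 and 52.2-fold without leukemic_39 (adjusted p = 0.0370 with all mice). In model 2 it had 1.25 CPM in preleukemic_663, 1.85 in preleukemic_837 and 2.33 in leukemic_601, the 3 mice with high Six2. It was 0 in preleukemic_633, leukemic_606 and leukemic_921 and 0.0267 CPM, or 1 count, in preleukemic_812. In TgSpi1FA+/+ preleukaemic cells of model 1 it was 0 in preleukemic_445 and preleukemic_138, 0.159 CPM in preleukemic_479 and 0.128 in preleukemic_451. It was 0.569 CPM in preleukemic_445 in the second table, 0.218 in preleukemic_451, 0.0329 in preleukemic_479 and 0 in preleukemic_138 and the leukaemic mice. Of 9 neighbours tested, 4 were called in TgSpi1FA-/- leukaemic against preleukaemic cells, where 13.3% of all genes were called. The lincRNA was among the 4, and it had passed the filter only through the TgSpi1FA-/- preleukaemic group, where it is high. Srbd1, 296.4 kb away, was lower (log2 fold change -0.85 ± 0.18, SE; adjusted p = 0.0206), as was Prkce, which encodes protein kinase C epsilon (-0.96 ± 0.27; adjusted p = 0.0462). Ppm1b, which encodes a protein phosphatase, was higher (0.79 ± 0.20; adjusted p = 0.0333). Of the 9 neighbours, Prkce was the 1 called against TgSpi1FA+/+ preleukaemic cells (-1.06 ± 0.26; adjusted p = 0.0431). In that comparison 7.01% of all genes were called. In model 2 Prkce was 5.25 to 8.38 CPM in leukaemic and 13.2 to 29.2 CPM in preleukaemic mice, without overlap. It was not called there by edgeR (-1.43 ± 0.40, adjusted p = 0.162). Nor were Srbd1 (-0.54, adjusted p = 0.281) and Ppm1b (-0.47, adjusted p = 0.480).

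Six4 showed the opposite arrangement, with reads almost only in TgSpi1FA-/- leukaemic cells. Six4 lies at chr12:73099609-73113456 on the minus strand. In TgSpi1FA-/- leukaemic cells it was 1.18 CPM in leukemic_26, 10.6 in leukemic_28 and 26.6 in leukemic_39. It had 0 counts in preleukemic_40, preleukemic_77 and preleukemic_224 and in 3 of the TgSpi1FA+/+ preleukaemic mice, and 1 count in preleukemic_479. In model 2 it had 1 count in preleukemic_633, 1 count in preleukemic_663 and none in the other mice. The leukaemic TgSpi1FA-/- mice therefore did not overlap with any other mouse, although leukemic_39 was far above leukemic_26. Six4 was at least 417-fold higher in TgSpi1FA-/- leukaemic than preleukaemic cells against 3 counts over the group, at least 193-fold without leukemic_39 and at least 268-fold without preleukemic_224. It was called by edgeR (adjusted p = 0.0136), with adjusted p between 0.00620 and 0.0468 when each mouse was left out. Six4 passed the low-count filter only through the leukaemic TgSpi1FA-/- group, where it is high, so that it had to differ once tested, and its calls here and below are a description. Of 4 members tested in this comparison besides Six2, Six4 was the only 1 called, at a background of 13.3% of the 13393 genes tested, or 6.82% increased. DESeq2 called the 3 members to which it gave an adjusted p (Six4, Eya3 and Eya4, but none for Six5), at a background of 21.8%. Against TgSpi1FA+/+ preleukaemic cells, where 7.01% of genes were called, Six4 was again the only member called of 4 (adjusted p = 0.0169), with 3.55% of genes increased. DESeq2 called the same 3 members there, at a background of 15.5%. The ratio was 1703 with a 95% counting interval from 305 to 67300, 786 without leukemic_39 and at least 430.0 without preleukemic_479. That call was lost without leukemic_28 (adjusted p = 0.0661), without preleukemic_445 (0.0604), without preleukemic_479 (0.0886) and with preleukemic_445 and preleukemic_479 counted as 1 sample (0.0867), a setting in which 0.844% of all genes were called. In the second table Six4 was 0.492 CPM in leukemic_26, 10.6 in leukemic_28 and 24.1 in leukemic_39, and at or under 0.0114 CPM in the 4 TgSpi1FA+/+ mice, and was called (adjusted p = 0.0236, background 1.59%). Of 11 neighbours of Six4 within 1 Mb tested, which were looked at after its values had been seen, Mnat1 (10.3 kb away; log2 fold change 0.69 ± 0.16; adjusted p = 0.0254) and Dhrs7 (434.7 kb away; 2.01 ± 0.48; adjusted p = 0.0296) were called higher in TgSpi1FA-/- leukaemic than preleukaemic cells.

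Eya3 had the highest mean level per kb of exon of the EYA genes in each of the 5 groups. It was between 35.5 and 567 CPM in all 17 libraries, and it lies at chr4:132638987-132724765 on the plus strand. Compared per kb of exon, the mean level of Eya3 was 25.6 CPM per kb in TgSpi1FA+/+ preleukaemic, 23.4 in TgSpi1FA-/- preleukaemic and 54.3 in TgSpi1FA-/- leukaemic cells of model 1. Only Six2 in TgSpi1FA-/- preleukaemic cells (109 CPM per kb) and in both groups of model 2 (18.6 in preleukaemic and 13.1 in leukaemic cells, against 14.3 and 7.25 for Eya3) had a higher mean than Eya3 on this scale. In TgSpi1FA+/+ preleukaemic cells of model 1, Eya3 was 161 CPM in preleukemic_445, 168 in preleukemic_479, 109 in preleukemic_451 and 139.7 in preleukemic_138. In TgSpi1FA-/- preleukaemic cells it was 109 CPM in preleukemic_77, 163 in preleukemic_224 and 124 in preleukemic_40. In TgSpi1FA-/- leukaemic cells it was 567 CPM in leukemic_26, 204 in leukemic_28 and 149 in leukemic_39. leukemic_26 stood apart, whereas leukemic_39 lay within the range of the preleukaemic mice. The log2 fold change between TgSpi1FA-/- leukaemic and preleukaemic cells was 1.21 ± 0.44 (SE; adjusted p = 0.0938) and did not pass the test. It was 0.42 without leukemic_26, and DESeq2 called it with all mice (adjusted p = 0.0233). Against TgSpi1FA+/+ preleukaemic cells it was 1.09 ± 0.41 (SE; adjusted p = 0.124), and 0.29 without leukemic_26. The preleukaemic groups differed by -0.13 ± 0.41 (SE; adjusted p = 0.964), within the spread between mice. In this comparison, without Six4, which was at or under the floor in both groups, edgeR called 0 of 3 members (Eya3, Eya4 and Six5), 0 had an unadjusted p under 0.05 and DESeq2 called 0 of the 2 to which it gave an adjusted p, at backgrounds of 0.00747% (1 of 13393 genes) for edgeR and 1.72% for DESeq2.

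In model 2, Eya3 was lower in each leukaemic mouse than in each preleukaemic mouse. It was 118 CPM in preleukemic_633, 66.2 in preleukemic_663, 50.5 in preleukemic_812 and 88.4 in preleukemic_837, against 46.6 in leukemic_601, 40.7 in leukemic_606 and 35.5 in leukemic_921. The groups did not overlap, although leukemic_601 and preleukemic_812 differed by less than the spread within the preleukaemic group. The log2 fold change was -0.98 ± 0.31 (SE) with an adjusted p of 0.173, so that it did not pass the test. Of 3 members tested in model 2 (Six2, Six5 and Eya3) edgeR called 0, at a background of 0.0% with 0 of 12970 genes called. Eya3 was the 1 member with an unadjusted p under 0.05 and the 1 member called by DESeq2 (adjusted p = 0.0371, background 9.23%), which gave no adjusted p for Six5. The 3 mast cell markers summed to 14.2 to 45.1 CPM in these leukaemic mice and 0.0252 to 5.47 CPM in the preleukaemic mice. The 8 erythroid markers summed to 2963 to 5147 CPM in leukaemic and 4043 to 9073 CPM in preleukaemic mice. Of these, edgeR called 0, 3 had an unadjusted p under 0.05 and DESeq2 called 3, namely Alas2 (log2 fold change -2.87 by edgeR), Gata1 (-0.62) and Hba-a1 (-2.17), in the direction of Eya3. The part of either list in this result was not tested.

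**Figure D2:**
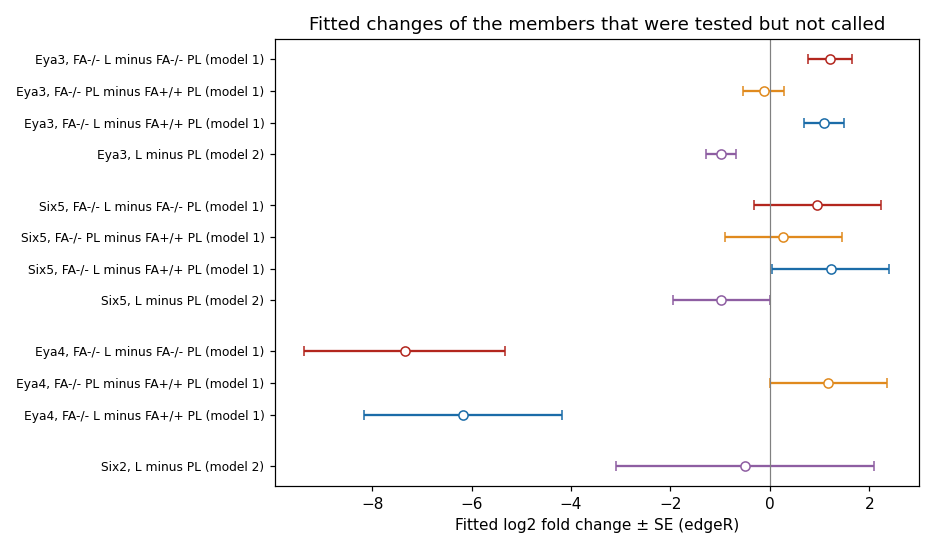
Fitted log2 fold changes (x axis) with SE bars for the members that edgeR tested and did not call, 1 row per member and comparison (L, leukaemic; PL, preleukaemic). The changes of Eya3 lie on opposite sides of 0 for both leukaemic comparisons of model 1 (1.21 and 1.09) and for model 2 (-0.98), and those of Eya4 are at -7.35 and -6.17 with wide errors.

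The changes of both models were compared with an interaction term, which also carries strain and protocol. Of 4 members tested, Eya3 and Six4 were called, at a background of 4.61% of 14597 genes, or 2.76% increased, and Six4 had passed the filter only through the group where it is high. DESeq2 called the same 2 members, at a background of 14.5%. For Eya3 the difference was 2.18 ± 0.56 (SE) on the log2 scale (adjusted p = 0.0442). This call was lost without leukemic_26 (1.38, adjusted p = 0.0506) and without any of 10 other mice, with adjusted p up to 0.1005, and was kept without preleukemic_663 and without preleukemic_812. For Six4 (adjusted p = 0.0337) no fold is given, because both groups of model 2 were at or under the floor. The call for Six4 was kept without leukemic_26, preleukemic_812 or preleukemic_837 and lost without any 1 of the other 10 mice, with adjusted p between 0.0508 and 0.0789.

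The genes whose levels were most like that of Eya3 over the 10 libraries of model 1 were its neighbours on chromosome 4. By Pearson's r of log2 CPM these were Stx12 (r = 0.991, 128.7 kb away), Nudc (r = 0.990, 807.8 kb away) and Gpn2 (r = 0.984, 859.6 kb away). This likeness is a description over libraries that share leukemic_26. After this was seen, the genes within 1 Mb of Eya3 with a mean of at least 5 CPM were examined in each library. In leukemic_26 all 36 genes were above the mean of the other 9 libraries, by a median of 2.06 on the log2 scale. In the other 9 libraries the median lay between -0.51 and 0.13, and at most 24 of the 36 genes were above the mean of the rest. In the second table all 36 genes were again above the mean of the other 6 libraries in leukemic_26, by a median of 2.36. Genes with a difference of at least 1 ran without a break from Srsf4, 0.751 Mb before the start of Eya3, to Pigv, 1.028 Mb after it. Higher genes were also found beyond these ends, since within 2 Mb 50 of 51 genes were above 0 with a median of 2.00, among them Selenon (4.12) and Man1c1 (4.19). Within 5 Mb the median was 0.61. Eya3 itself was 1.97 above the mean of the other 9 libraries. Over the 182 genes within 10 Mb the median was 0.245, and over the other chromosomes it was -0.03. The test called 4 of 49 neighbours in TgSpi1FA-/- leukaemic against preleukaemic cells, all higher, where 6.82% of all genes tested were called higher.

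**Figure D3:**
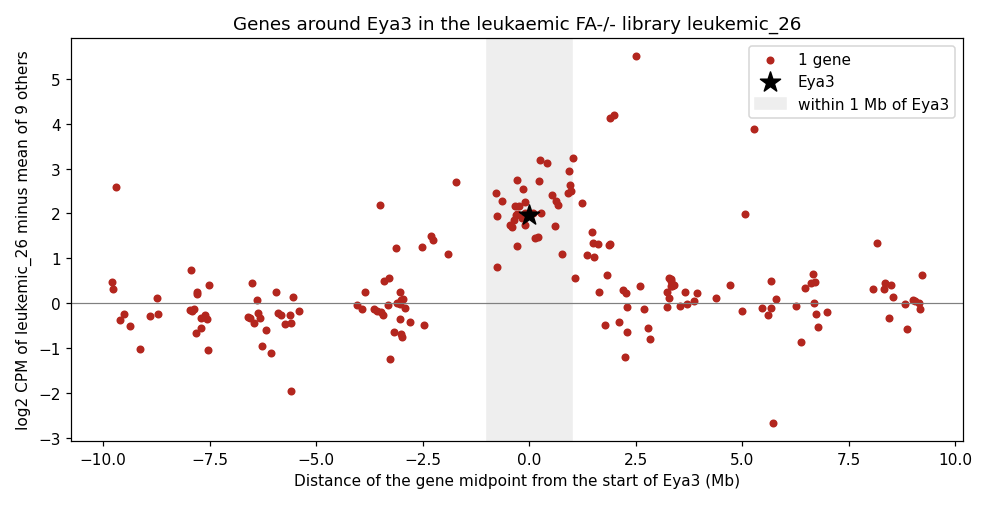
Each point is 1 gene of chromosome 4, placed by the distance of its midpoint from the start of Eya3 (x axis, Mb); the y axis gives log2 CPM of leukemic_26 minus the mean of the other 9 libraries of model 1. Genes in the shaded 1 Mb on each side lie above 0, as do most genes within 2 Mb, with Eya3 (star) at 1.97, and the median over 10 Mb on each side is 0.245.

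Eya4 was low throughout and had no count in TgSpi1FA-/- leukaemic cells. Eya4 lies at chr10:23102963-23350786 on the minus strand. In TgSpi1FA-/- preleukaemic cells it was 0.657 CPM in preleukemic_77, 0.965 in preleukemic_224 and 0.162 in preleukemic_40, or 20, 33 and 5 counts. In TgSpi1FA+/+ preleukaemic cells it was 0.25 CPM in preleukemic_445, 0.0952 in preleukemic_479, 0.705 in preleukemic_451 and 0 in preleukemic_138. It had 0 counts in leukemic_26, leukemic_28 and leukemic_39. Each TgSpi1FA-/- preleukaemic mouse was above the leukaemic mice, whereas preleukemic_138 was not. Eya4 was at least 23.3-fold lower in leukaemic than in preleukaemic TgSpi1FA-/- cells, at least 15.4-fold lower without leukemic_28 and at least 15.3-fold lower without leukemic_39. It passed the filter only through preleukaemic mice, where it is higher. It did not pass the test of edgeR (adjusted p = 0.0518) and was called by DESeq2 (adjusted p = 0.00945). Against TgSpi1FA+/+ preleukaemic cells it was at least 9.74-fold lower, 6.42-fold without leukemic_28, 6.40-fold without leukemic_39 and 4.27-fold without preleukemic_451 (adjusted p = 0.102, and 0.0420 without preleukemic_138). In the second table Eya4 was again at 0 in the 3 leukaemic mice. In model 2 it was 0.0756 CPM in preleukemic_633, 0.95 in preleukemic_663, 0 in preleukemic_812 and 0.0247 in preleukemic_837, against 0 in leukemic_601, 0.0254 in leukemic_606 and 0.426 in leukemic_921. The groups of model 2 overlapped (two-sided exact permutation test on log2(CPM + 0.1), p = 0.857, where 0.0571 is the smallest possible).

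Six5 encodes a homeodomain protein and lies next to the myotonic dystrophy kinase gene Dmpk. Its locus is chr7:19094594-19098549 on the plus strand. It was 0.156 CPM in preleukemic_445, 0.190 in preleukemic_479, 1.35 in preleukemic_451 and 10.1 in preleukemic_138. It was 3.15 CPM in preleukemic_77, 3.45 in preleukemic_224 and 4.11 in preleukemic_40, and 5.23 in leukemic_26, 7.67 in leukemic_28 and 7.89 in leukemic_39. Leukaemic TgSpi1FA-/- mice were each above the preleukaemic TgSpi1FA-/- mice, whereas preleukemic_138 was above them all. The means were 2.96 ± 4.82 CPM (SD, n = 4), 3.57 ± 0.489 (SD, n = 3) and 6.93 ± 1.47 (SD, n = 3). TgSpi1FA-/- leukaemic cells differed from preleukaemic cells by 0.96 ± 1.27 (SE) on the log2 scale (adjusted p = 0.646) and from TgSpi1FA+/+ preleukaemic cells by 1.23 ± 1.18 (adjusted p = 0.540). Without preleukemic_138 the latter was 3.61 and was called (adjusted p = 0.0292). In model 2 Six5 was 7.82 CPM in preleukemic_633, 2.45 in preleukemic_663, 0.507 in preleukemic_812 and 2.37 in preleukemic_837, against 2.23 in leukemic_601, 2.44 in leukemic_606 and 0.341 in leukemic_921. These groups overlapped (log2 fold change -0.97 ± 0.98, SE; adjusted p = 0.613).

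The 3 genes most like Six5 over the libraries of model 1 were Dmwd (r = 0.982), Zfp358 (r = 0.979) and Tbkbp1 (r = 0.959). Dmwd lies 11.8 kb before Six5 on the same strand, and Dmpk, which lies between them and ends 772 bases before Six5, had an r of 0.943. Dmwd was 63.4 CPM in preleukemic_138 and between 1.97 and 11.4 in the other TgSpi1FA+/+ preleukaemic mice of model 1, and preleukemic_138 was the highest of these 4 mice for both genes. In model 2, which the choice of Dmwd did not use, preleukemic_633 was highest (60.9 CPM) and preleukemic_812 lowest (3.47 CPM) of the preleukaemic mice for Dmwd, as for Six5. Among the leukaemic mice of model 2 the orders differed at the top, since Dmwd was 28.8 CPM in leukemic_601, 17.6 in leukemic_606 and 7.12 in leukemic_921. Whether reads running on from Dmpk were counted for Six5 was not tested.

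**Figure D4:**
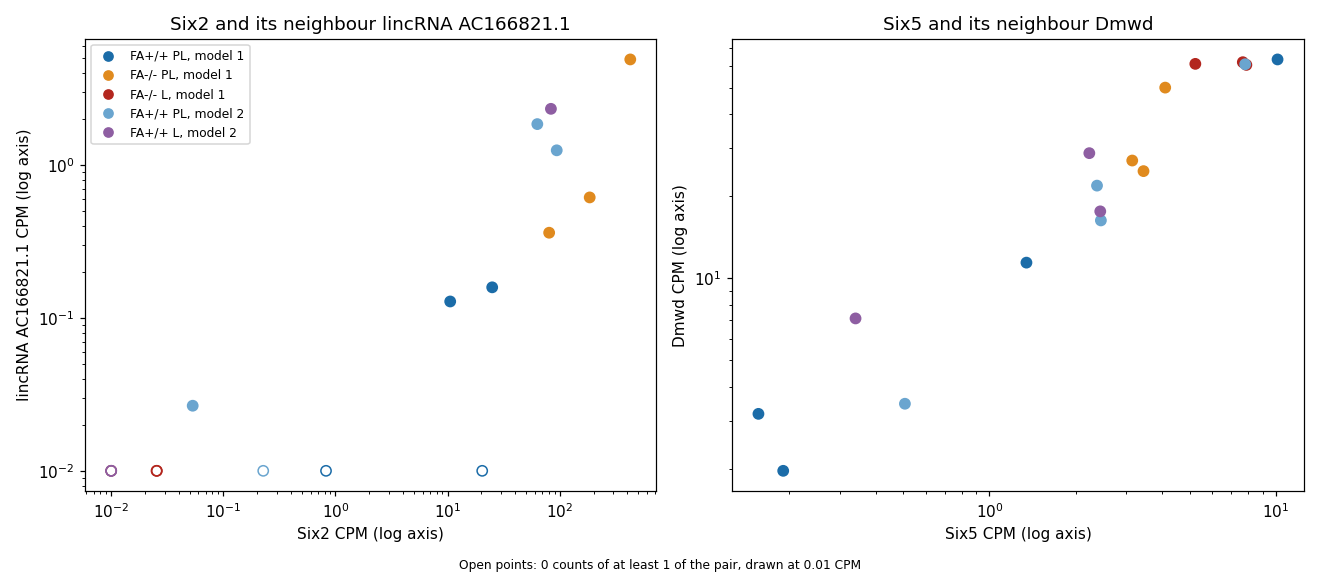
Left, CPM of Six2 (x axis) and of the lincRNA AC166821.1 (y axis); right, CPM of Six5 (x axis) and of Dmwd (y axis), both on log axes, 1 point per mouse for all 17 libraries coloured by group (open points, 0 counts of at least 1 of the pair). In 3 mice of model 2 both Six2 and the lincRNA are above 1 CPM, and Dmwd spans 1.97 to 63.4 CPM.

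Eya1 and Eya2 were at a few counts in the tables of both models. Eya1 had at most 3 counts and Eya2 at most 7 counts in any library of both models. No difference was detectable at this depth in these tables (exact permutation tests, p between 0.400 and 1.0 for Eya1 and between 0.857 and 1.0 for Eya2, where 0.1 is the smallest possible for 3 against 3 mice). Eya1 had, in the second table, which held more counts for most mice, 16 counts in leukemic_26, 16 in leukemic_28 and 2 in leukemic_39, against 1 count in preleukemic_138 and 0 in the other TgSpi1FA+/+ mice, without overlap. Eya2 had 12 counts there in leukemic_28 and at most 1 in the other mice. In the same table Six3 had 5 counts in preleukemic_479, 1 count in preleukemic_445 and 0 in the other 5 mice.

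The protein-coding genes most like the other members over the 10 libraries of model 1 did not lie near them. They were Cog5 (r = 0.982), Polq (r = 0.973) and Kat2b (r = 0.972) for Six2 and Ube2e2, Zcchc24 and Zfp516 (r = 0.997 for each) for Six4. For Eya4 they were Tor1b (r = 0.971), Zfp981 (r = 0.958) and Tspyl2 (r = 0.955). Kat2b is on the same chromosome as Six2 but 32011.6 kb away. The lincRNA next to Six2 was outside this search. These likenesses are descriptions, and that of Six2 uses the values for which it was chosen. Outside the leukaemic TgSpi1FA-/- mice Six4 had at most 1 count in a library of model 1, so that its r rests on those mice.

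Of the partners of these proteins, Pax6 had the same order of groups as Six2 in model 1. Pax6, a paired-box factor of eye and pancreas, was 71.2 CPM in preleukemic_445, 71.7 in preleukemic_479, 58.0 in preleukemic_451 and 39.9 in preleukemic_138. It was 105 CPM in preleukemic_77, 174 in preleukemic_224 and 139 in preleukemic_40, and 9.76 in leukemic_26, 4.55 in leukemic_28 and 4.08 in leukemic_39. As for Six2, the TgSpi1FA-/- preleukaemic mice were highest and the leukaemic mice lowest, without overlap. The difference between the preleukaemic groups was 1.21 ± 0.33 (SE) on the log2 scale. It was not called by edgeR (adjusted p = 0.535) and was called by DESeq2, at backgrounds of 0.00747% and 1.72% of all genes. Pax6 was the only PAX or DACH gene tested in model 1 out of 12 listed, and it was repressed in leukaemic against TgSpi1FA-/- preleukaemic cells (log2 fold change -4.51 ± 0.42, SE; adjusted p = 0.00195). All 11 alternatives kept this call. Against TgSpi1FA+/+ preleukaemic cells the log2 fold change was -3.30 (adjusted p = 0.00610), without a call in the second table (adjusted p = 0.117). There Pax6 was 19.0 CPM in preleukemic_138 and 20.2 CPM in leukemic_26, so that the groups overlapped in that table. In model 2 Pax6 was 21.6 to 127 CPM in preleukaemic and 29.3 to 74.7 CPM in leukaemic mice, without a call (adjusted p = 0.460), and its high mice were not those of Six2, since preleukemic_812 had 88.4 CPM of Pax6. The difference between models was called (-3.68 ± 0.74, SE; adjusted p = 0.0285) and was lost without preleukemic_77, preleukemic_224, preleukemic_40, leukemic_28, leukemic_39, leukemic_601 or leukemic_921 (adjusted p at most 0.0770).

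Of 6 Groucho corepressors, through which sine oculis proteins can repress, 5 were tested and 0 were called by edgeR between TgSpi1FA-/- leukaemic and preleukaemic cells, where 3 had an unadjusted p under 0.05 and DESeq2 called 1, Tle2. Tle3 was higher in TgSpi1FA-/- leukaemic than TgSpi1FA+/+ preleukaemic cells (log2 fold change 0.91 ± 0.21, SE; adjusted p = 0.0380), a call lost without preleukemic_445, preleukemic_479, leukemic_28 or leukemic_39 (adjusted p between 0.103 and 0.120), with preleukemic_445 and preleukemic_479 as 1 sample (0.102) and in the second table (0.407). Its difference between models was also called (1.39 ± 0.32, SE; adjusted p = 0.0345) and was lost in 9 of 17 alternatives. Of all genes, 4.61% were called for that difference and 7.01% against TgSpi1FA+/+ preleukaemic cells. Between TgSpi1FA-/- leukaemic and preleukaemic cells Tle3 changed by 0.53 ± 0.23 (SE, adjusted p = 0.149). In model 2 Tle3 was 16.7 to 19.5 CPM in leukaemic and 23.6 to 39.6 CPM in preleukaemic mice. It was not called there by edgeR (-0.88 ± 0.26, SE, adjusted p = 0.165) and was called by DESeq2. Of 12 nephron progenitor genes 3 were tested, and Cited1, a transcriptional coregulator, rose in TgSpi1FA-/- leukaemic cells. Cited1 was 1.12 CPM in leukemic_26, 20.9 in leukemic_28 and 23.8 in leukemic_39, against 0 to 0.146 CPM in TgSpi1FA-/- preleukaemic mice (log2 fold change 7.30 ± 1.42, SE; adjusted p = 0.0165). The call was lost without preleukemic_77 (adjusted p = 0.0502), preleukemic_224 (0.0600) or leukemic_28 (0.0526). Cited1 passed the low-count filter only through the leukaemic group, where it is high, so that its call is a description. Like Six4, it was lowest in leukemic_26 among the leukaemic mice. Sall1, a nephron progenitor factor, was 39.1 CPM in preleukemic_445, 38.1 in preleukemic_479 and 69.1 in preleukemic_451 but had 0 counts in preleukemic_138 and in the 6 TgSpi1FA-/- mice. The genotypes therefore overlapped at 0. Sall1 was not called by edgeR, and DESeq2 called it in both comparisons with TgSpi1FA+/+ preleukaemic cells. It passed the low-count filter only through that group, where it is high, so that the DESeq2 calls are a description. Among its high mice were preleukemic_445 and preleukemic_479, the pair also counted as 1 sample. Of the EYA phosphatase and H2A.X genes (5 of 6 tested) and the known target genes of sine oculis proteins (3 of 9 tested in model 1), 0 were called by edgeR or by DESeq2 in each of the 5 comparisons. At most 2 of the former and at most 1 of the latter had an unadjusted p under 0.05 in any of them.

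Markers of tissues in which these genes are usually studied were mostly near 0. The summed level of 4 kidney markers was at most 2.5 CPM and that of 4 neural and retinal markers at most 0.153 CPM in any library. The 4 skeletal muscle markers summed to 0.685 to 14.8 CPM in TgSpi1FA-/- leukaemic cells and 0.129 to 0.230 CPM in TgSpi1FA-/- preleukaemic cells, and Des, which encodes desmin, was called there (adjusted p = 0.0175). That call was lost without preleukemic_77, preleukemic_224 or preleukemic_40 (adjusted p between 0.0564 and 0.0671). Des passed the low-count filter only through the leukaemic group, where it is high, so that its call is a description. The 3 endothelial markers summed to 8.11 to 35.1 CPM against 0.356 to 0.673 CPM, and Kdr was called (adjusted p = 0.00770). Kdr was the 1 endothelial marker tested and alone was 7.32 to 34.6 CPM against 0.323 to 0.643 CPM. The 3 megakaryocyte markers summed to 163 to 249 CPM against 31.0 to 39.1 CPM, and Itga2b was called (adjusted p = 0.00472). Itga2b alone was 92.8 to 243 CPM against 16.1 to 21.8 CPM. In TgSpi1FA+/+ preleukaemic mice of model 1 the megakaryocyte sum was 42.4 to 186 CPM, which overlapped the leukaemic range. There Itga2b alone was 29.7 to 56.0 CPM, without overlap. Of all genes, edgeR called 13.3% between TgSpi1FA-/- leukaemic and preleukaemic cells. Pf4, the other megakaryocyte marker tested, was not called by edgeR (log2 fold change 0.74, adjusted p = 0.745). The 7 stromal markers summed to 9.80 to 276 CPM in TgSpi1FA-/- preleukaemic and 0.939 to 6.01 CPM in TgSpi1FA-/- leukaemic cells. Col1a2 alone was 9.77 to 273 CPM and 0.152 to 5.57 CPM there. It made up nearly all of the lowest and highest preleukaemic sums, so that these do not describe the list as a whole. The 1 stromal marker tested, Col1a2, was not called by edgeR (log2 fold change -5.63, unadjusted p = 0.0180, adjusted p = 0.0840) and was called by DESeq2. Des, Kdr and Itga2b, and Col1a2 by DESeq2, differed in the same comparison as Six2, Six4 and Eya4, and their part in those results was not tested.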

How the data were processed

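RNA was measured in erythroid blasts of 17 mice with a stranded polyA library per mouse in the tables of both models. The authors aligned reads to mm10 (GRCm38) with STAR 2.5.3a and counted them per gene with HTSeq 0.6.1p1, per the labels and the study's methods, after bcl2fastq 2.17.1.14. The strand setting and the annotation were not given in the sources used here. The deposited values were raw counts per gene, not normalized. A second deposited table of counts of 7 mice of model 1 was used only as an alternative, and an identical copy of a table was not used.

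Counts were fitted with edgeR 4.0.16 in R 4.3.3 (filterByExpr, TMM, quasi-likelihood test, Benjamini-Hochberg adjustment over all genes tested), with the 10 libraries of model 1 together, the 7 of model 2 together and all 17 for the difference between models. Calls (increased or repressed) needed a change of 1.5 times or more either way together with an adjusted p below 0.05. DESeq2 1.42.0, other filters and scalings, mice left out and preleukemic_445 with preleukemic_479 as 1 sample were alternatives. Members under the filter were compared by exact permutation tests with scipy 1.17.1 on log2(CPM + 0.1). Bounds against groups at 0 used 3 counts over the group, and ratios of counts have exact 95% intervals. Intervals and floors cover counting error only. The fit was tested on simulated data. Places of genes are from GENCODE M21 (GRCm38).

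The named genes were the members, the called genes of lists of partners and markers, the called genes within 1 Mb of Six2 and the 3 protein-coding genes most correlated with each member. The neighbours of Six4, Eya3 and Six5 were added after values had been seen. The members and lists were chosen with earlier results of these data known. Each mouse gave 1 library, and p-values measure the spread between these mice.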

Additional observations from a re-analysis of the deposited data

Results flagged for a closer look

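A gap of the highest or lowest mouse to the others was looked for in the groups of 4 mice. Chance flags about 1 in 20 groups if values are normally distributed. This rate does not hold for genes near 0, such as Eya2 and Eya4, where 1 mouse with more counts is readily flagged. Six5 in preleukemic_138 stood apart from the other TgSpi1FA+/+ preleukaemic mice of model 1 at 10.1 CPM. Eya2 in preleukemic_812 (0.187 CPM, from 7 counts) and Eya4 in preleukemic_663 (0.95 CPM) stood apart from the other preleukaemic mice of model 2.

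The leukaemic change of Eya3 differed between models 1 and 2 by 2.18 on the log2 scale (edgeR, adjusted p = 0.0442), and that of Six4 by a fitted 14.06 (adjusted p = 0.0337), which depends on the prior count because Six4 was at or under the floor in model 2 and passed the low-count filter only through the group where it is high. Both differences carry strain and protocol, which cannot be told apart from the model. In the second table, outside the comparisons, Six3 had 5 counts in preleukemic_479, above the 3 counts that a count of 0 allows.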

How the results depend on the processing

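With DESeq2's Wald test, 3 members were called in TgSpi1FA-/- leukaemic cells against either preleukaemic group and 1 in model 2, in place of 1, 1 and 0. With preleukemic_445 and preleukemic_479 as 1 sample, 0 were called against TgSpi1FA+/+ preleukaemic cells, and without the low-count filter 1 in place of 2 was called for the difference between models. Leaving out each mouse, the number called was 1 to 1 against TgSpi1FA-/- preleukaemic cells, 0 to 3 against TgSpi1FA+/+ preleukaemic cells (0 without preleukemic_445, preleukemic_479 or leukemic_28, 3 without preleukemic_138), 0 to 0 in model 2 and 0 to 2 for the difference between models. Six5 between preleukaemic groups turned to -0.13 with preleukemic_445 and preleukemic_479 as 1 sample, with -0.13 to 2.66 when mice were left out. Six2 in model 2 was -13.57 to 0.0847 (0.0812 without leukemic_606, 0.0847 without leukemic_921) and its difference between models -13.80 to 0.19 when mice were left out. Six2 could not be fitted in model 2 without preleukemic_663 or preleukemic_837, where it fell under the filter. The cause of these changes was not tested.

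Over single tested members, Six2 in model 1 and values without an adjusted p left out, 112 of the values with a mouse left out and 75 of the other alternatives kept direction and side of the threshold, 24 and 2 lost a call, 2 and 5 gained one and 4 and 1 changed sign. Over all genes, 1782 were called in TgSpi1FA-/- leukaemic against preleukaemic cells (DESeq2 2923) and 1 between preleukaemic groups (DESeq2 231, no filter 4). Against TgSpi1FA+/+ preleukaemic cells 939 were called (DESeq2 2081, preleukemic_445 and preleukemic_479 as 1 sample 112, 267 in the second table), in model 2 0 (DESeq2 1197) and for the difference between models 673 (DESeq2 2116, no filter 279). No paired analysis was possible because the groups compared share no replicate numbers. In the tables of both models depth limits Eya1, Eya2 and, outside TgSpi1FA-/- leukaemic cells, Six4, none of which had more than 7 counts in a library.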
